A study of Rattus norvegicus with 16 samples.

Results

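Heat shock proteins of the cytosol and of mitochondria were followed in the left ventricle of rats after loss of kidney mass. The set held 10 genes, taken by symbol: Hspb1, Hspb6, Hspb7, Hspb8, Hspa8, Hsph1, Dnajb1, Hsp90aa1, Hspd1 and Hspe1. It was chosen with earlier results of these data known. All 10 were found in each weekly table, each at 1 locus, among 22861 loci (22862 at week 7). All 10 had enough reads to be tested by the authors at every week, so no member was lost to a filter on low values.

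The rats were male Sprague Dawley animals on a 0.4% Dyets chow, operated on at 10 weeks of age. They had either 5/6 nephrectomy (5/6Nx), the excision of most kidney tissue and a model of chronic kidney disease, or sham surgery. Hearts were taken 2, 4, 5 or 7 weeks later, which gave 8 groups of 2 libraries, each library a pool of 2 to 3 rats. Every week had its own sham group. The tables give 1 abundance per group and locus, in FPKM (fragment counts corrected for transcript length and for library size), so the 2 pools of a group cannot be seen apart and no spread between them can be shown. A change is given as the log2 fold change of 5/6Nx over sham ± a standard error derived from the deposited p-value. It reflects the spread between pools as the authors' tool modelled it, not between animals.

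Heat shock proteins are chaperones: they hold, fold and refold other proteins, and many of them are made in larger amounts when a cell is hot, short of oxygen or otherwise stressed. Small heat shock proteins (the HSPB family) bind unfolding proteins without using ATP, and several are abundant in heart and skeletal muscle, where they associate with the sarcomere. HSP70 proteins bind and release clients in an ATP cycle that J-domain proteins start and nucleotide exchange factors reset. HSP90 matures kinases and steroid receptors. In the mitochondrial matrix, HSP60 and its lid HSP10 form the folding chamber for imported proteins. Heat shock factor 1 (HSF1) drives the inducible members through heat shock elements, inverted repeats of GAA in their promoters.

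The promoter sequences show how unevenly that control element is spread over the set. RefSeq (build GRCr8) gave a window of 300 bases, 250 before to 50 after the start site, for 9 of the 10 genes, all but Hsp90aa1. A match to 2 facing units (GAANNTTC or TTCNNGAA, each its own reverse complement, so both strands are covered; overlapping matches were counted) was found in 8 of the 9 windows, against 15.8% of 33465 rat promoter windows. A match to 3 alternating units (GAA, TTC, GAA or TTC, GAA, TTC, each unit 2 bases from the next, on both strands, which contains matches of the former kind) was found in 4 of the 9, those of Hspa8, Hsph1, Hspd1 and Hspe1, against 0.798% of all windows. The stretches below were chosen because they hold the longest run of units, the isolated pairs of a muscle small heat shock gene, and no match. They lie wholly before the start site of the named gene, and capitals mark the matches.
Hspe1, chr9:64084247-64084306, plus strand: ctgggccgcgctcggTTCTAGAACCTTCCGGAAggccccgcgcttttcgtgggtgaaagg
Hsph1, chr12:10427248-10427367, plus strand: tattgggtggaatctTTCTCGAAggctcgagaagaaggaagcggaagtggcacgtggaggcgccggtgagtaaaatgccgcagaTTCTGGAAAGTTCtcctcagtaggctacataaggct
Hspb6, chr1:94934122-94934241, plus strand: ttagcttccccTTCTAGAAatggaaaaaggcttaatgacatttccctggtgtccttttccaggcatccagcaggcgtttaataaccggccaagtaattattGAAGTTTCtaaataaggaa
Hspb7, chr5:159010639-159010758, plus strand: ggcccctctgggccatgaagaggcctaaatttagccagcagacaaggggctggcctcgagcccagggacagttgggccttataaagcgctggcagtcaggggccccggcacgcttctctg

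The run of units in the Hspe1 stretch lies in the windows of a pair of genes and was counted for each of them. Hspd1 and Hspe1 point away from each other, their windows share 211 bases, and the same run of units is read from either strand, starting 65 bases before the Hspe1 start and 242 bases before the Hspd1 start. In the deposited tables (build rn5) the loci of Hspd1 (XLOC_021831, chromosome 9, 61361743 to 61372370) and Hspe1 (XLOC_021463, chromosome 9, 61372461 to 61375747) are also neighbours, 90 bases apart. Hsph1 holds its 3 units 36 bases before the start. Hspb7 had no match in its window, which says only that these letters are absent there.

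**Figure D1:**
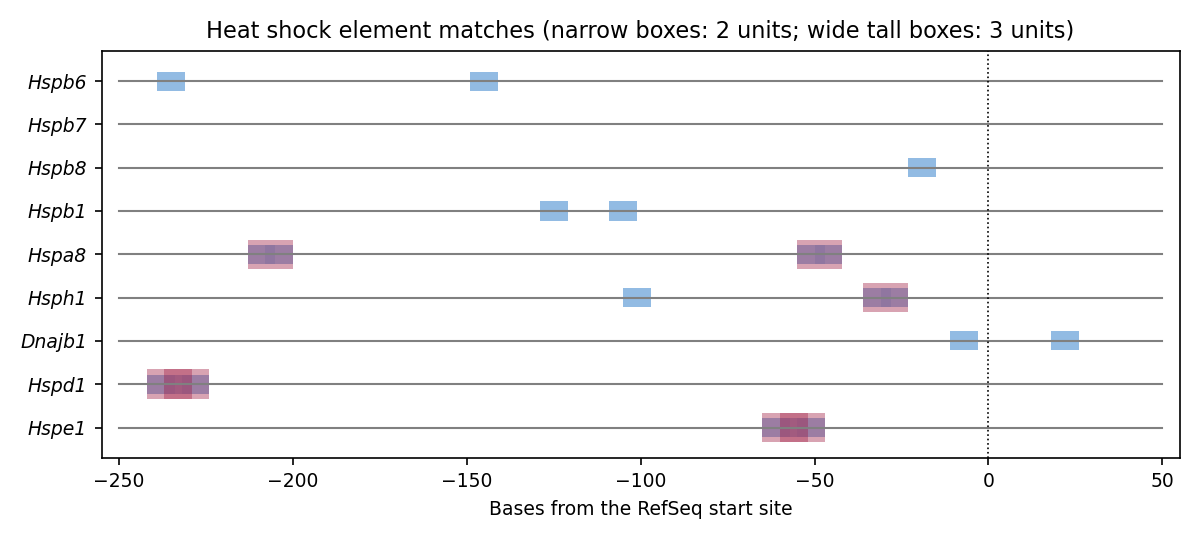
Matches to heat shock element letters in the promoter windows of 9 genes. The x axis gives bases from the RefSeq start site (dotted line), each grey line is 1 window, narrow boxes are matches of 2 units and tall boxes matches of 3 units. The 3-unit matches lie in the windows of Hspa8, Hsph1, Hspd1 and Hspe1, and the Hspb7 line is empty.

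One locus needs care before any value is read. Hspa8 stands in the tables as XLOC_004951 on chromosome 11, 17153157 to 17155257, a locus of 2.1 kb, whereas the RefSeq table of the later build places Hspa8 on chromosome 8. The other 9 members lie on the same chromosome in both. Whether the locus named Hspa8 is the gene itself or a near-identical copy could not be told here. If there is such a copy, reads of the 2 could not be separated. Its values are therefore those of the locus that carries the name, and the chromosome 8 promoter window may not belong to it.

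The first question was how abundant each chaperone is in the ventricle. Hspb6 stood first in 7 of the 8 groups. It encodes HSP20, which binds actin-associated proteins in muscle (XLOC_000388, chromosome 1, 90161985 to 90169214). It had 1348 FPKM in sham and 1293 in 5/6Nx at week 2, 1472 and 1385 at week 4, 2242 and 2343 at week 5, and 1258 and 1273 at week 7. Hspb7 encodes a small heat shock protein of heart and skeletal muscle (XLOC_016726, chromosome 5, 163688615 to 163692523). It had 908 and 962 FPKM at week 2, 991 and 920 at week 4, 1617 and 1580 at week 5, and 537 and 557 at week 7. Both genes lay above the 98th percentile of tested loci in every sham group, with lowest values of 99.33 for Hspb6 and 98.72 for Hspb7.

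The remaining small heat shock genes were less abundant. Hspb8, which encodes HSP22, the partner of BAG3 in clearing damaged muscle proteins (XLOC_005788, chromosome 12, 47717761 to 47731883), had 235 and 217 FPKM in sham and 5/6Nx at week 2, 256 and 228 at week 4, 370 and 345 at week 5, and 308 and 323 at week 7. Hspb1 encodes HSP27, a stress-inducible protein that protects actin filaments (XLOC_005981, chromosome 12, 25837070 to 25838753). Its values were 202 and 242 FPKM at week 2, 222 and 189 at week 4, 328 and 338 at week 5, and 80.9 and 69.0 at week 7. Among these 4 genes Hspb1 had the lowest level in both groups at weeks 4, 5 and 7, and at week 2 in sham.

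Among the members of the HSP70 machine, the locus that carries the name of the constitutive gene Hspa8 had the highest level. The locus named Hspa8, the gene of HSC70, had 948 and 845 FPKM in sham and 5/6Nx at week 2, 930 and 821 at week 4, 836 and 817 at week 5, and 1339 and 1056 at week 7. Hsph1 encodes HSP105, a nucleotide exchange factor of HSP70 (XLOC_005864, chromosome 12, 8423535 to 8442632), and had 21.7 and 22.1 FPKM at week 2, 20.3 and 21.0 at week 4, 17.1 and 16.6 at week 5, and 55.1 and 35.6 at week 7. Dnajb1 encodes HSP40, a J-domain protein that starts the HSP70 cycle (XLOC_010304, chromosome 19, 35726333 to 35730075), and was the least abundant member in every group. Its values were 13.5 and 13.8 FPKM at week 2, 12.1 and 13.7 at week 4, 12.2 and 13.1 at week 5, and 13.7 and 10.3 at week 7. Sham Hsph1 stood at 0.0229, 0.0218, 0.0204 and 0.0412 of the sham level of the Hspa8 locus at weeks 2, 4, 5 and 7.

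Hsp90aa1 encodes the inducible cytosolic HSP90 (XLOC_018444, chromosome 6, 144182011 to 144187540). It had 159 and 160 FPKM in sham and 5/6Nx at week 2, 152 and 162 at week 4, 90.0 and 105 at week 5, and 466 and 507 at week 7. It was higher in 5/6Nx than in sham in all 4 tables, by margins that did not pass the test.

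The mitochondrial pair kept one order. Hspe1, the gene of HSP10, had 479 and 433 FPKM in sham and 5/6Nx at week 2, 489 and 472 at week 4, 578 and 612 at week 5, and 592 and 555 at week 7. Hspd1, the gene of HSP60, had 247 and 217 FPKM at week 2, 241 and 216 at week 4, 230 and 213 at week 5, and 464 and 370 at week 7. Hspe1 exceeded Hspd1 in every group, and the sham ratio was 1.94, 2.03, 2.52 and 1.28 at weeks 2, 4, 5 and 7. In 5/6Nx the ratio was 1.99, 2.19 and 2.88 at weeks 2, 4 and 5 and was again lowest at week 7.

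**Figure D2:**
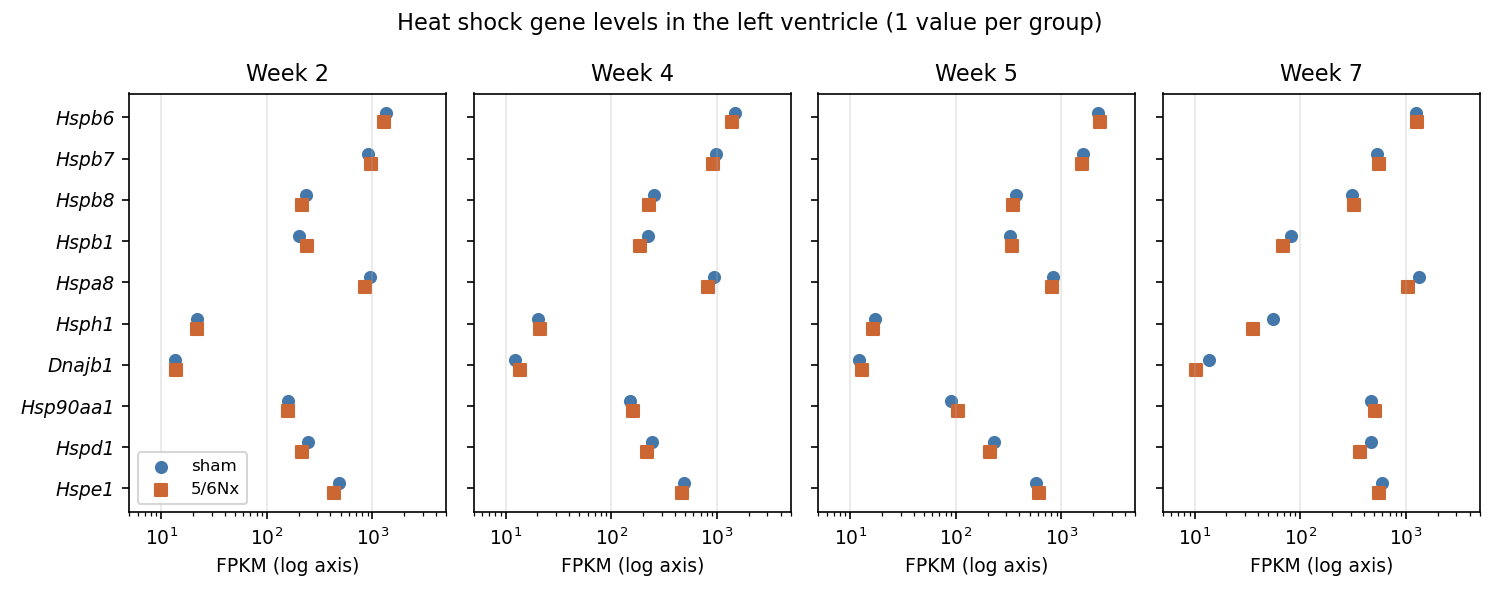
Level of the 10 genes by week and group. The x axis is FPKM on a log axis, circles are sham and squares 5/6Nx, and each point is the 1 value that the deposited table gives per group. Sham and 5/6Nx points lie close together, and Hsph1 at week 7 (55.1 and 35.6 FPKM) is the most separate pair.

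Over the weeks the order of levels held best at its ends. At weeks 2, 4 and 5, Hspd1, Hspb8 and Hspb1 exchanged places 5 to 7. Hspb6 stood first in both groups of every week but the sham group of week 7, where Hspa8 (1339 FPKM) stood above it (1258 FPKM). Hsp90aa1, Hsph1 and Dnajb1 took places 8, 9 and 10 in both groups of weeks 2, 4 and 5. At week 7 Hsp90aa1 stood in place 5 and Hspb1 in place 8. Whether neighbours in this order differ beyond their spread could not be tested, since 1 value per group was deposited.

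The second question was whether 5/6Nx changed these genes. Cuffdiff called 0 of 10 members at each of weeks 2, 4, 5 and 7 in the authors' deposited tables. Over all tested loci the called share was 0% at week 2, 0.334% at week 4, 0.55% at week 5 and 1.75% at week 7, so a count of 0 among 10 genes is near the background at each week. Of the 40 values (10 genes, 4 weeks), 1 had an unadjusted p under 0.05, that of Hsph1 at week 7, beside 2.77%, 5.47%, 4.44% and 10.8% of all tested loci at weeks 2, 4, 5 and 7. Calls made from the deposited test statistic instead were also 0 at every week. The intervals bound how large a change these data leave room for. Of the 40 intervals at 95%, 38 lay inside a 2-fold change in either direction, and at weeks 2, 4 and 5, 29 of 30 lay inside a 1.5-fold change. With the wider standard errors taken from the deposited test statistic, 35 of 40 lay inside a 2-fold change, and 13 of those 30 inside a 1.5-fold change.

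At weeks 2, 4 and 5 the point estimates ran from -0.23 to 0.26 on the log2 scale, which is 0.85-fold to 1.2-fold, with standard errors of 0.15 to 0.25. The smallest unadjusted p at those weeks was 0.126. Both ends of that range belonged to Hspb1, which stood at 0.26 ± 0.17 at week 2 and at -0.23 ± 0.15 at week 4. At week 2, 5 of 10 members were above sham and the median log2 fold change was -0.02, beside -0.02 over all tested loci. At week 4, 3 of 10 were above sham with a median of -0.10, beside -0.02 over all loci and -0.12 over 884 loci of at least 100 FPKM. At week 5, 5 of 10 were above sham with a median of 0.00, equal to that of all loci at this precision. At week 7, 4 of 10 were above sham with a median of -0.16, beside -0.01 over all loci. Over loci of at least 100 FPKM the medians were -0.07, 0.02 and 0.02 at weeks 2, 5 and 7.

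Among the small heat shock genes, Hspb6 had log2 fold changes of -0.06 ± 0.18, -0.09 ± 0.16, 0.06 ± 0.24 and 0.02 ± 0.28 at weeks 2, 4, 5 and 7. Hspb7 had 0.08 ± 0.18, -0.11 ± 0.16, -0.03 ± 0.25 and 0.05 ± 0.28. Their signs turned between weeks, and every one of these values was smaller than its standard error. Hspb8 had -0.12 ± 0.17, -0.17 ± 0.16, -0.10 ± 0.19 and 0.07 ± 0.28. For Hspb1 the later values were 0.04 ± 0.18 at week 5 and -0.23 ± 0.29 at week 7.

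The members of the set that belong to the HSP70 cycle, Hspa8, Hsph1 and Dnajb1, were all below sham at week 7, and none passed the test. The Hspa8 locus had -0.17 ± 0.18, -0.18 ± 0.16, -0.03 ± 0.22 and -0.34 ± 0.29 at the 4 weeks. Dnajb1 had 0.03 ± 0.19, 0.17 ± 0.17, 0.10 ± 0.19 and -0.42 ± 0.30. Hsph1 had 0.03 ± 0.17, 0.05 ± 0.16 and -0.04 ± 0.18 at weeks 2, 4 and 5. Its week 7 value was -0.63 ± 0.26, with an unadjusted p of 0.0171 and a q of 0.29 in the authors' deposited table. It is the only member value of the 40 whose 95% interval (-1.15 to -0.11) leaves out 0, and with a standard error taken from the deposited test statistic the interval is -1.37 to 0.11.

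Hsp90aa1 had 0.01 ± 0.17, 0.10 ± 0.15, 0.22 ± 0.18 and 0.12 ± 0.28. Hspd1 had -0.19 ± 0.17, -0.16 ± 0.15, -0.11 ± 0.18 and -0.33 ± 0.27, and Hspe1 had -0.15 ± 0.17, -0.05 ± 0.15, 0.08 ± 0.18 and -0.09 ± 0.26. Of this pair, whose promoter windows overlap, Hspd1 was below sham in all 4 weeks and Hspe1 in 3, with no value of either past the test. Only 3 of the 10 members kept one sign through the 4 weeks, Hsp90aa1 above sham and Hspd1 and Hspa8 below.

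**Figure D3:**
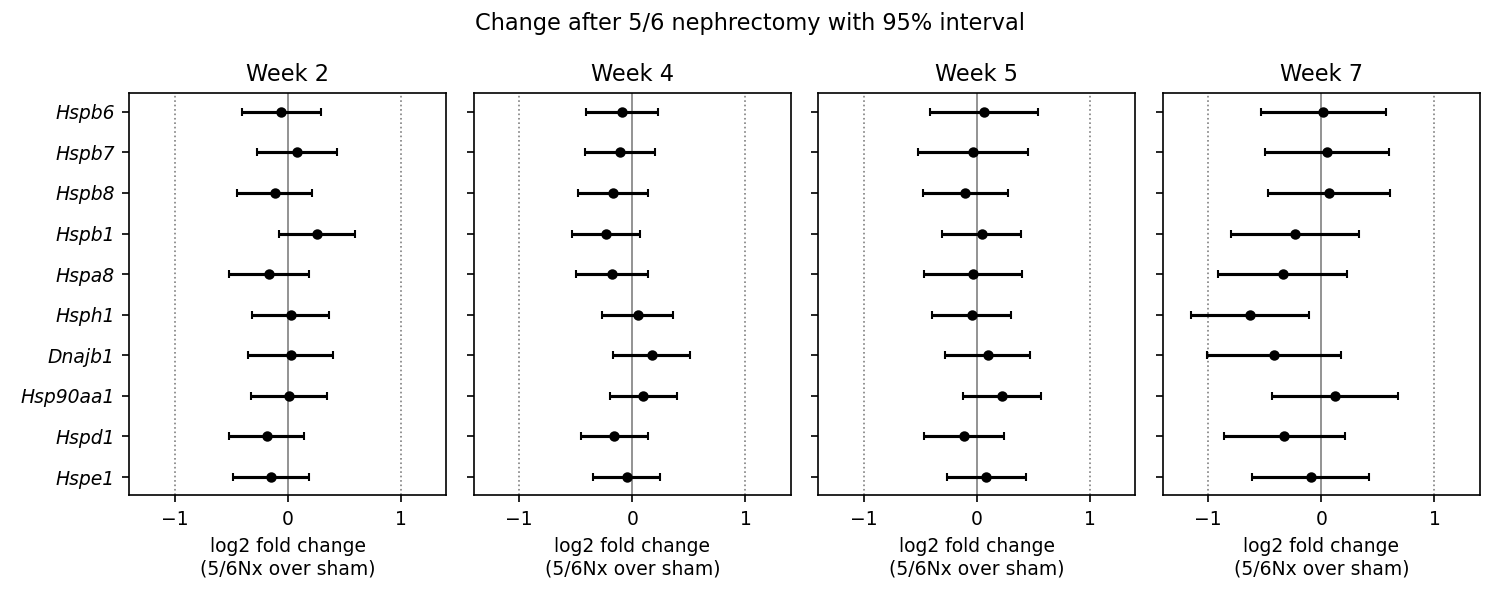
Log2 fold change (5/6Nx over sham, x axis) of each gene at each week, with bars for the 95% interval and dotted lines at a 2-fold change. Every interval but that of Hsph1 at week 7 (-1.15 to -0.11) crosses 0, and the week 7 bars are the widest.

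Precision was lowest at week 7. The median standard error of the members was 0.17, 0.16, 0.19 and 0.28 at the 4 weeks, and 1 of 10 intervals at week 7 lay inside a 1.5-fold change. Libraries held 44.5 to 61.8 M reads (M, mega), apart from pool 2 of the 5/6Nx group at week 7 with 23.6 M, and 94.0 to 94.9% of reads mapped. In the week 7 table the statistic carried the reverse sign of the abundance ratio at each of 13639 loci where both could be read, so every week 7 direction rests on the names of the abundance columns and would turn if those names were exchanged. Read by the deposited names, Postn had log2 fold changes of 0.54, 0.91, 1.32 and 3.49 at weeks 2, 4, 5 and 7. In the same order Nppa had 0.35, 0.44, 1.08 and 2.46 and Col3a1 0.77, 0.71, 0.73 and 0.93, all above sham. Not every marker listed with these genes shared that side. At week 7, 6 of 8 fibroblast markers and 1 of 5 atrial markers (Nppa) were above sham. Whether the column names are right was not tested.

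An effect near a threshold in 1 week and far from it in another is no evidence of a difference, so differences between weeks were tested directly. A normal test of the difference of log2 fold changes was run for each locus and each of 6 pairs of weeks with Benjamini-Hochberg adjustment across 77848 tests. It is a normal approximation, since no value per pool was at hand for an exact test. No member pair passed (0 of 60, beside 0.027% of all tests), and every adjusted p of the members was 1. Unadjusted, 3 of 60 pairs had p under 0.05, beside 3.37% of all tests. For Hsph1 the week 7 value was lower than that of week 2 by a difference of -0.66 ± 0.32 and than that of week 4 by -0.68 ± 0.31. For Hspb1 week 4 differed from week 2 by -0.50 ± 0.23.

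By contrast with the small fold changes within a week, levels differed widely between tables. Each week was tabulated separately, and a common scaling of the weeks is not given in the sources used here. These values are descriptions with no test. Hsp90aa1 spanned 90.0 to 466 FPKM over the 4 sham groups, a ratio of 5.18, Hspb1 80.9 to 328 (4.05), Hsph1 17.1 to 55.1 (3.23) and Hspb7 537 to 1617 (3.01). Dnajb1 spanned 12.1 to 13.7 (1.13) and Hspe1 479 to 592 (1.24). Ranks within a table do not depend on its scale. Sham Hsph1 stood at the 73.67, 72.25 and 68.60th percentile of tested loci at weeks 2, 4 and 5 and at 88.26 at week 7. Sham Hsp90aa1 stood at 95.61, 95.30, 91.83 and 98.45, and sham Hspb1 at 96.41, 96.61, 97.20 and 91.88.

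The shift between the week 7 and week 2 tables did not follow the families. On the log2 scale, sham levels at week 7 relative to week 2 stood at 1.55 for Hsp90aa1, 1.35 for Hsph1, 0.91 for Hspd1, 0.50 for the Hspa8 locus, 0.39 for Hspb8, 0.31 for Hspe1 and 0.02 for Dnajb1. They stood at -0.10 for Hspb6, -0.76 for Hspb7 and -1.32 for Hspb1. In the same order the 5/6Nx groups gave 1.66, 0.69, 0.77, 0.32, 0.57, 0.36 and -0.43, then -0.02, -0.79 and -1.81. The small heat shock gene Hspb8 thus stood on the higher side and Hspb1 and Hspb7 on the lower, and Dnajb1 lay near 0 in sham and below it in 5/6Nx. The median over all 12218 loci compared in sham was 0.03. Among those loci the week 7 to week 2 ratio placed Hsp90aa1 at the 98.7th and Hspb1 at the 8.99th percentile. Relative to week 5, sham levels at week 7 were lower for every small heat shock gene of the set. They stood at -0.26 for Hspb8, -0.83 for Hspb6, -1.59 for Hspb7 and -2.02 for Hspb1. The other members stood above 0 in sham, from 0.04 for Hspe1 to 2.37 for Hsp90aa1. In 5/6Nx, Hspe1 (-0.14) and Dnajb1 (-0.35) were also below 0 in that comparison. The week 7 libraries also differed in base quality, with 96.0 to 96.2% of bases at quality 30 or above against 93.2 to 94.5% at the other weeks. Week and table cannot be told apart here.

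**Figure D4:**
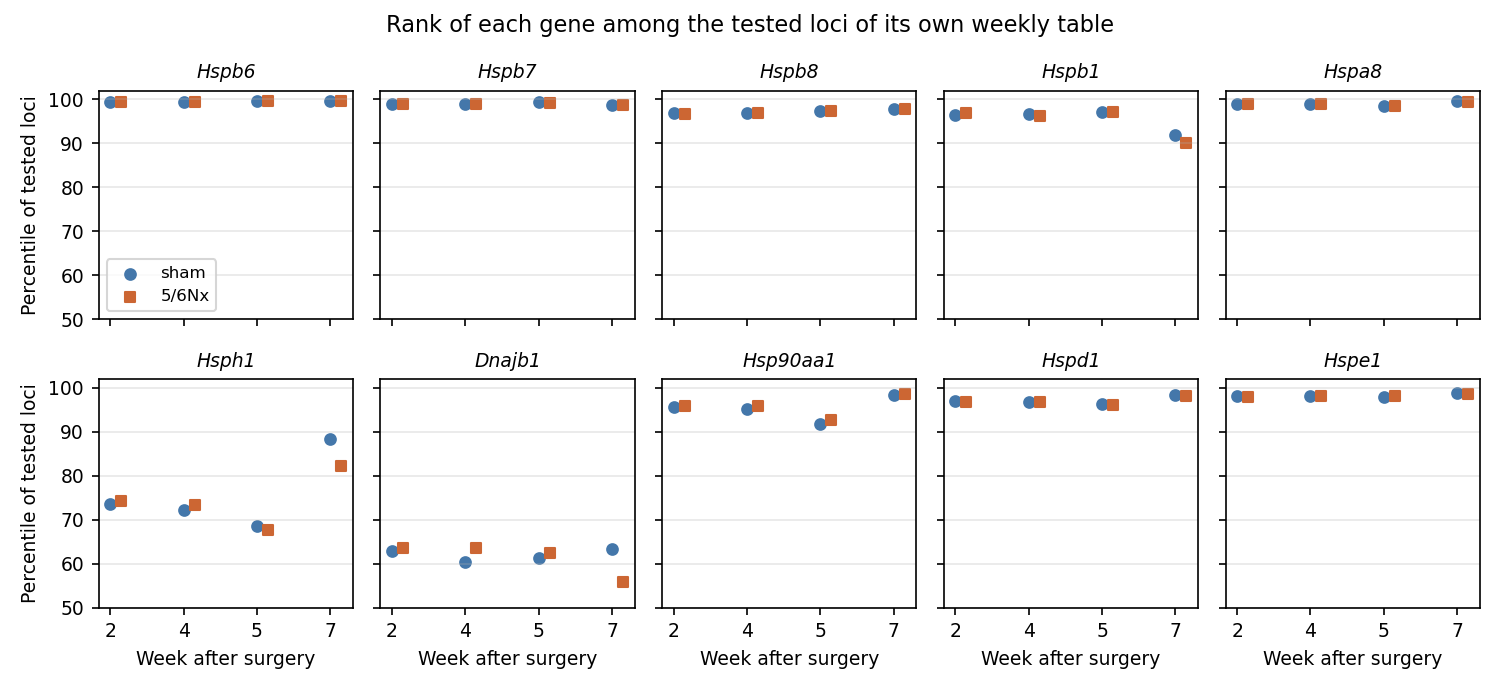
Percentile of each gene among the tested loci of its own weekly table (y axis) by week (x axis), for sham (circles) and 5/6Nx (squares). Hsph1 in sham stands at 68.60 to 73.67 at weeks 2, 4 and 5 and at 88.26 at week 7, and Hspb1 in sham is lowest at week 7 (91.88).

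The wider chaperone network was read from 6 lists of 67 further symbols, of which 62 loci were tested at each week. No gene of them was called at weeks 2, 4 or 5, and at week 7 none was called higher and 1 lower, Fkbp4, beside 1.75% of all tested loci called at that week. At weeks 2, 4, 5 and 7, 46, 49, 37 and 40 of the 62 loci were below sham and 16, 13, 25 and 22 above, beside 45.1, 46.3, 50.4 and 49% of all loci above. The medians of the network were -0.06, -0.09, -0.03 and -0.09, beside -0.02, -0.02, 0.00 and -0.01 over all loci and -0.07, -0.12, 0.02 and 0.02 over loci of at least 100 FPKM. At weeks 2 and 4 the network's medians were near those of loci of at least 100 FPKM, and at weeks 5 and 7 they were on the other side of 0. Many loci of the network lie below that level, such as Stip1 (49.5 FPKM) and Hsf1 (10.8 FPKM) in sham at week 2. The abundant loci are therefore not a matched set for the network. Unadjusted, 0, 1, 0 and 5 of 62 had p under 0.05, all of them below sham. These are shares of 0, 1.61, 0 and 8.06%, each under the share of all tested loci (2.77, 5.47, 4.44 and 10.8%).

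Fkbp4 fell at week 7. It encodes FKBP52, an HSP90 co-chaperone of steroid receptors (XLOC_015988, chromosome 4). Its level went from 81.9 FPKM in sham to 40.5 in 5/6Nx, a log2 fold change of -1.02 ± 0.27 (q = 0.0169 in the authors' deposited table). At weeks 2, 4 and 5 its values were -0.26 ± 0.17, -0.22 ± 0.15 and -0.07 ± 0.18. Week 7 differed from them with adjusted p of 1, 0.933 and 0.613 in the normal test of week differences, none past the threshold. It was the 1 called gene of 18 tested HSP70 and HSP90 co-chaperones, of which 12 were below sham at week 7 with a median of -0.36. Also in that list, the HSP70-HSP90 adaptor Stip1 had -0.53 ± 0.27 and the kinase co-chaperone Cdc37 -0.75 ± 0.36 at week 7, not called. Hsp90ab1, the constitutive cytosolic HSP90, had 706 and 632 FPKM in sham and 5/6Nx at week 2 and 817 and 626 at week 7 (-0.38 ± 0.29), not called.

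None of the other 5 lists had a called gene at any week. At week 7, 9 of 18 tested HSP70 family and J-domain genes were below sham (median -0.02), 10 of 10 mitochondrial chaperones and proteases (median -0.30), 5 of 8 subunits of the CCT chaperonin (median -0.04), 2 of 3 further small heat shock genes (median -0.09) and 2 of 5 heat shock factors and partners (median 0.09). Cryab, the gene of alpha-B crystallin and the most abundant of these genes, had 2693 and 2289 FPKM at week 7 (-0.23 ± 0.30). Hsf1, the gene of the factor that binds heat shock elements, had 4.38 and 2.95 FPKM (-0.57 ± 0.37). The stress-inducible HSP70 genes Hspa1a and Hspa1b share 1 locus in the tables, with 1.63 and 0.94 FPKM at week 7 (-0.79 ± 1.68), so a change there was not detectable. In the eye lens, alpha-A crystallin is abundant, and its gene Cryaa was listed at 0 in every group here.

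Rbm3, one of the pair of cold-inducible RNA-binding protein genes listed beside the heat shock genes, rose at week 7 from 64.2 to 243 FPKM (1.92 ± 0.47, q = 0.00564 in the authors' deposited table). Its values at weeks 2, 4 and 5 were -0.10 ± 0.18, 0.01 ± 0.16 and 0.17 ± 0.18. Week 7 differed from them with adjusted p of 0.0977, 0.131 and 0.261, none past the threshold. Cirbp, the other one, had 0.33 ± 0.33 at week 7, not called.

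**Figure D5:**
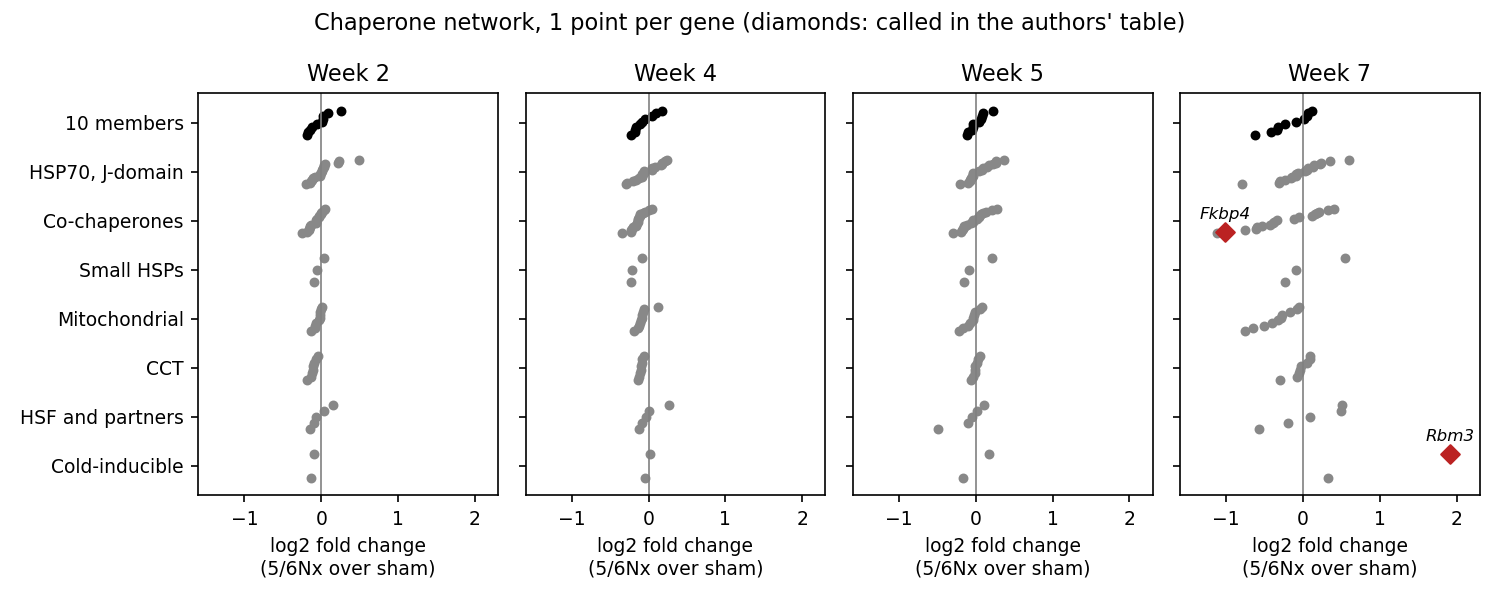
Log2 fold change (5/6Nx over sham, x axis) of the 10 genes (black) and of 7 lists of related genes (grey), 1 point per gene and 1 panel per week. Red diamonds are genes called in the authors' table, Fkbp4 (-1.02) and Rbm3 (1.92), both at week 7.

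Ventricular cardiomyocyte markers and macrophage markers each lay on one side of sham at week 7, and largely so at the earlier weeks. The fibroblast, endothelial, atrial, adipocyte and red cell lists each had tested genes on both sides of sham at week 7. At week 7 all 8 ventricular cardiomyocyte markers were below sham (median -0.41, 0 called, summed level 54617 FPKM in sham and 42811 in 5/6Nx), and all 8 macrophage markers were above (median 1.19, 4 called, summed level 206 and 814 FPKM). At weeks 2, 4 and 5, 8, 8 and 6 of the 8 cardiomyocyte markers were below sham (medians -0.10, -0.19 and -0.05, 0 called). All 8 macrophage markers were above sham at these weeks too (medians 0.42, 0.30 and 0.43), with 0, 0 and 1 called. The members' median at week 7 was -0.16, with 6 of 10 below sham. No cardiomyocyte or macrophage marker was at 0. In whole tissue, fewer cells of a type and less RNA per cell cannot be told apart, and the part of these markers in the values of Hsph1 and Fkbp4 was not tested. As a check of the labelled tissue, the ventricular light chain gene Myl2 had 33367 FPKM in sham at week 2 and 23017 at week 7. The atrial one, Myl7, had 468 FPKM in sham at week 2 and 220 at week 7.

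The called genes of the other lists give the setting in which the heat shock genes were read. At week 7 the macrophage genes Cd68, Cd163, Mrc1 and Lyz2, the fibroblast gene Postn, the atrial gene Nppa, the red cell genes Hba-a2 and Alas2 and the immediate early genes Egr1, Egr2, Egr3 and Klf4 rose, and the atrial genes Myl7 and Bmp10 fell. No gene was called among 4 tested adipocyte and 5 tested endothelial markers at that week. Of the 4 tested adipocyte markers, 3 were below sham and 1 above, with Adipoq at -1.55. The adipocyte markers Plin1 and Cidec were not tested at week 7, and Ucp1 was listed at 0. At week 5, Nppa, Postn, Thy1, Lyz2, Hbb, Hba-a2 and Alas2 rose and the adipocyte genes Adipoq, Plin1 and Cidec fell. At week 4, Postn, Col1a1 and Col3a1 rose, and Fos, Atf3, Cyr61, Myl7, Sln, Adipoq, Plin1 and Cidec fell. No gene of any list was called at week 2.

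The genes whose fold changes over the 4 weeks were nearest to those of Hsph1, the member with the widest range (0.68 on the log2 scale), were found by Euclidean distance among 6460 loci of at least 5 FPKM in every group. They were the locus of Lcat and Slc12a4 (distance 0.0421), LOC502176 (0.0751), Nfic (0.0774), Rev3l (0.0863) and the locus of Entpd2 and Npdc1 (0.0897). None of these 5 was called at any week, and their week 7 log2 fold changes lay between -0.59 and -0.66.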

How the data were processed

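Left ventricle RNA was made into stranded libraries from total RNA, per the labels. Build rn5, Cuffdiff, Cufflinks 2.0.10, TopHat2 2.0.10 and cutadapt are listed, without roles, per the submitters' processing notes. The deposited abundances are taken as FPKM because Cuffdiff writes them; the file headers do not state the unit. The authors deposited a test statistic (a score), a p-value and a q-value per locus. A further deposited table holds a count of reads and percent values for mapping and base quality per library. No value per library of any gene was in these tables, so the authors' test stood and no model was fitted. Fold changes used no pseudocount. Standard errors are the size of the log2 fold change over the normal deviate that matches the deposited p (an upper bound where p was 5e-05), and intervals are 1.96 standard errors either side. A locus was called where the authors marked it (q under 0.05). In the week 7 table, lines repeating a locus under several symbols, 6 of them with a blank identifier, were joined. Calculations used Python 3.11.15, pandas 2.3.3 and scipy 1.17.1 and were tested on simulated data. Those data were drawn from the normal model itself, so they check the code and not whether the deposited p-values follow that model. The members and lists were chosen with earlier results of these data known. Named genes were all 10 members, up to 4 called genes per list and week, and 5 genes nearest in pattern to the member of widest range; genes named outside this rule (Stip1, Cdc37, Hsp90ab1, Cryab, Cryaa, Hsf1, Hspa1a, Hspa1b, Cirbp, Myl2) were chosen after their values were seen. Replicates are pools, and nothing says that they share or do not share animals. Promoters came from RefSeq in build GRCr8 and loci from rn5, and no coordinates were converted.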

Additional observations from a re-analysis of the deposited data

Results flagged for a closer look

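Among the genes looked at beside the heat shock set, 2 immediate early genes had fold changes that differed between weeks 4 and 7 after adjustment over all loci and pairs of weeks. The log2 fold change of Atf3 was higher at week 7 than at week 4 by a difference of 2.24 ± 0.50, from -1.41 ± 0.35 at week 4 to 0.83 ± 0.36 at week 7. That of Egr1 was higher by 1.56 ± 0.34, from -0.42 ± 0.17 to 1.14 ± 0.29. The adjusted p of the normal test was 0.0384 and 0.0307. Standard errors from the deposited statistic, which were wider for the members, were tried for member differences only. Whether the differences of Atf3 and Egr1 would pass with them was not tested. Both differences rest on the week 7 direction, which is taken from the column names. With those names exchanged (tried after the data were seen), the difference would be 0.57 for Atf3, no longer past the threshold, and -0.72 for Egr1. Both were in a list of 20 immediate early genes of which 15 of 19 tested were below sham at week 4 and 19 of 19 above at week 7. No heat shock gene of the 10 showed such a difference.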

How the results depend on the processing

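The count of called members was 0 at every week under each alternative run: q under 0.10, q under 0.01, adjustment over loci of at least 1 FPKM, any locus with the symbol, and, added after the data were seen, p taken from the deposited statistic. No member differed between weeks when loci of at least 1 FPKM were used, or with standard errors from the statistic (added after the data were seen). Directions of all 40 member values held under pseudocounts of 0.1 and 1, centring on the median locus and summing loci. Scaling to the upper quartile turned 2 of 40, both at week 7: Hspb6 to -0.0365 and Hspb7 to -0.0015. It shifted week 7 by 0.05 on the log2 scale, as its construction sets. With a standard error from the statistic, 35 of 40 intervals lay inside a 2-fold change and 13 inside a 1.5-fold change, against 38 and 30. Matches to a heat shock element fell from 8 to 4 of 9 promoters when 3 units were asked for. No paired analysis was possible because the tables give 1 value per group, and for the same reason leaving out a replicate was not run. Exchanging the week 7 column names (added after the data were seen) left 0 member differences between weeks and turned that of Egr1 between weeks 4 and 7 to -0.7175. Standard errors were widest at week 7, where 1 of 4 libraries held 23.6 M reads; the part of depth in this was not tested.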

Other observations

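Chaperones of the endoplasmic reticulum, a compartment outside the set, did not follow one side across the weeks. Of 13 tested genes, 11 were above sham at week 2 (median log2 fold change 0.13), 2 at week 4 (-0.09), 10 at week 5 (0.12) and 4 at week 7 (-0.14). None was called at any week. At an unadjusted p under 0.05 there were 1, 0, 0 and 1 of 13 at weeks 2, 4, 5 and 7.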
